A study of Mus musculus with 12 samples.

Results

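The comparison set imiquimod-treated skin of Tcn2-deficient mice against imiquimod-treated wild-type skin, over all genes of a count table of polyadenylated RNA. Its members were chosen by sample title: 4 Tcn2-/- IMQ libraries and 5 IMQ libraries, 9 of the 12 libraries in the series. The other 3 came from wild-type control skin without imiquimod. They enter no log2 change given here, but they share the fit and so the estimate of spread behind every call. Where their levels are set beside those of the compared libraries, the difference was not tested. The Tcn2-/- IMQ libraries are labelled IMQ-induced and Tcn2-deficient (Tcn2-/-). The IMQ libraries are labelled IMQ-induced, and the series' design text calls those mice wild-type. Imiquimod is thus shared by both groups, and the Tcn2 genotype is what the labels set between them. For strain, age, imiquimod dose and duration, the construction of the Tcn2 allele and the number of animals behind each library, nothing is given in the sources used here. Nothing states that libraries of a group came from separate animals, so p-values measure the spread between these libraries, which may be technical.

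Tcn2 encodes transcobalamin, the plasma protein that binds vitamin B12 (cobalamin) and carries it into cells through the receptor encoded by Cd320. Inside the cell B12 serves methionine synthase (Mtr) and the mitochondrial enzyme methylmalonyl-CoA mutase (Mmut). Imiquimod is an agonist of Toll-like receptor 7 that gives a psoriasis-like inflammation when put on mouse skin, with thickened epidermis, neutrophils and a type 17 cytokine response. Interleukin-1β, the product of Il1b, is made mainly by myeloid cells and drives neutrophil recruitment, while STAT3 transmits cytokine signals in keratinocytes and lymphocytes. The series title places both in the path from TCN2 to skin inflammation, and these genes and their pathways are followed here.

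Libraries held 16182324 to 18503487 counts over 33539 genes, and 18147 genes were tested. Levels are given as CPM, counts per 1000000 counts of the library after TMM scaling, and changes are log2 differences of Tcn2-/- IMQ minus IMQ skin. A call needed an adjusted p below 0.05 in the quasi-likelihood test of edgeR, adjusted by Benjamini-Hochberg over all genes tested. Each adjusted p printed comes from it unless another tool is named, and brackets give the log2 change first. The libraries of a group were not alike. Along the leading principal component (34.1% of variance) Tcn2-/- IMQ replicates 1 and 2 lay at −34.1 and −98.6, while replicates 3 and 4 lay at 52.6 and 44.4, within the range of the IMQ libraries (−4.72 to 70.7). Values are therefore given library by library, in the order of the replicate numbers. IMQ replicate 1 and control replicates 2 and 3 held reads of Xist, which female cells express, and the other 9 libraries held reads of the Y-linked Ddx3y, so all 4 Tcn2-/- IMQ libraries and 4 of the 5 IMQ libraries were male by these genes. Control replicate 1 lay farthest out (−140.5) and had the highest share of mitochondrial counts, 10.3% against 3.18% and 5.53% in the other controls. That share was 6.06%, 8.08%, 3.23% and 4.23% in Tcn2-/- IMQ replicates 1 to 4 and 2.78% to 4.41% in IMQ libraries, so replicates 1 and 2 were above every IMQ library. Tcn2-/- IMQ replicate 2 also had the fewest genes with a count, 21417 against 22340 to 24411 in the others, and the part of these signs in the split of the group was not tested. The titles also carry the word muscle where the tissue label gives skin. The epidermal keratin Krt14 stood at 3172 to 17429 CPM and the muscle actin Acta1 at 2805 to 11468 CPM in the Tcn2-/- IMQ libraries, against 4887 to 13437 and 720.0 to 2183 CPM in the IMQ libraries, so both epidermal and muscle RNA were counted.

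Tcn2 (ENSMUSG00000020432, GRCm39 chromosome 11, 3867192 to 3882159, minus strand) was measured first, as a check of the labels. Its level was 90.3, 67, 137, 130.1 and 141 CPM in the 5 IMQ libraries and 5.59, 1.91, 5.44 and 4.14 CPM in the 4 Tcn2-/- IMQ libraries, from 94, 32, 88 and 71 counts, so transcripts of the gene were low but still counted in each. The groups did not overlap, and the values followed the labels. The means were 113 ± 32.6 CPM (SD, n = 5) in IMQ skin and 4.27 ± 1.7 CPM (n = 4) in Tcn2-/- IMQ skin, a log2 change of −4.72 (SE 0.505, adjusted p = 0.00695). The call ended without Tcn2-/- IMQ replicate 1 (adjusted p = 0.0502) or replicate 4 (adjusted p = 0.0776), while the change stayed at −4.88 and −4.71.

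Cd320, Mmut and Mtr, the receptor and the enzymes that use vitamin B12, gave no call. Cd320 stood at 21.7, 16.4, 12.8, 11.3 and 10.9 CPM in IMQ and 12.4, 17.3, 10.8 and 11.3 CPM in Tcn2-/- IMQ skin (−0.18, SE 0.238, adjusted p = 0.8). Mmut (0.034, SE 0.124, adjusted p = 0.932) and Mtr (−0.45, SE 0.349, adjusted p = 0.636) overlapped too. Of 16 measured genes of B12 uptake, transport and use, edgeR called Tcn2 alone, beside 0.022% of all genes tested called lower and 0.00551% called higher. DESeq2 called Tcn2 lower and Mmaa higher, and limma voom called Tcn2. Their median log2 change was 0.046, beside 0.0082 over all genes tested. Mmaa, which encodes a protein that guards methylmalonyl-CoA mutase, stood at 8.68, 12, 8.06, 9.89 and 11 CPM in IMQ and 19.7, 19.5, 13.7 and 16.3 CPM in Tcn2-/- IMQ libraries. Its groups did not overlap, but it did not pass in edgeR (0.80, SE 0.228, adjusted p = 0.197), while DESeq2 gave an adjusted p of 0.0369. Mcee, the methylmalonyl-CoA epimerase of the same mitochondrial pathway, was at 0.43 (adjusted p = 0.474), again without overlap. Of the 26 measured folate and methionine cycle genes (median 0.016) edgeR called none, 1 lower had an unadjusted p below 0.05, DESeq2 called 1 lower and limma voom 0. The one without overlap was Aldh1l1, a cytosolic folate dehydrogenase, with 27.7 to 36.9 CPM in IMQ and 10.7 to 20.3 CPM in Tcn2-/- IMQ libraries (−1.01, SE 0.205, adjusted p = 0.123). The mitochondrial propionate pathway (9 genes, median 0.034, 0 at an unadjusted p below 0.05, 0 by DESeq2, 0 by limma voom) had no edgeR call.

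Over all genes, 5 of 18147 were called, 4 lower and 1 higher in Tcn2-/- IMQ skin, or 0.0276%. Besides Tcn2, these were Il1b, the gene models Gm15446 and Gm9733, and Wdfy1. An unadjusted p below 0.05 was found for 1117 genes lower (6.16%) and 1029 higher (5.67%). The libraries of the groups did not overlap for 577 genes lower (3.18%) and 310 higher (1.71%). These shares are the background for each count of list members given below. The number of calls depended on the tool and on single libraries. DESeq2's Wald test on the same counts called 356 genes lower (1.96%) and 244 higher (1.34%), and limma voom with sample quality weights, which count a library that departs from its group for less, called 24 lower (0.132%) and 4 higher (0.022%). Values from limma voom here all come from that weighted fit. In edgeR, the 9 compared libraries alone gave 37 lower (0.219%) and 5 higher (0.0295%), and the fit without control replicate 1 gave 87 lower (0.465%) and 8 higher (0.0428%). Without control replicate 2 or 3 edgeR called 3 genes lower and 0 higher. Without Tcn2-/- IMQ replicates 1 and 2 edgeR called 1 gene, and without replicates 3 and 4 it called 152 lower and 168 higher. All 5 genes were also called by DESeq2, by limma voom, among the 9 libraries alone and without control replicate 1.

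Wdfy1, which encodes an adaptor protein of endosomal Toll-like receptor signalling, was the 1 gene that rose. It stood at 26.3, 19, 19.7, 21.6 and 17.2 CPM in IMQ libraries, 48, 47.3, 41.4 and 53.8 CPM in Tcn2-/- IMQ libraries and 25.3, 23 and 22.2 CPM in controls. Every Tcn2-/- IMQ library lay above all 8 others, and replicates 1 and 2 did not stand apart from 3 and 4 (1.20, SE 0.155, adjusted p = 0.0247). Gm15446, a gene model on chromosome 5 with no role given here, stood at 12.5, 9.63, 11.8, 15.4 and 13.6 CPM in IMQ and 0.416, 1.49, 0.495 and 0.467 CPM in Tcn2-/- IMQ libraries (−4.12, SE 0.397, adjusted p = 0.00457). Its control libraries, at 19.1, 15.6 and 18.7 CPM, were also above every Tcn2-/- IMQ library. Gm9733, a gene model on chromosome 3, had 235 counts over the IMQ libraries and 2 over the Tcn2-/- IMQ libraries, which per total counts is a ratio of 95.7 (interval 26.2 to 795 at 95%, counting error only; adjusted p = 0.0247). Wdfy1 lost its call when 1 of 10 libraries was left out, with adjusted p up to 0.146, and Gm9733 when 1 of 8 was, with the same highest value. Gm15446 kept its call without each of the 12 libraries in turn.

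**Figure D1:**
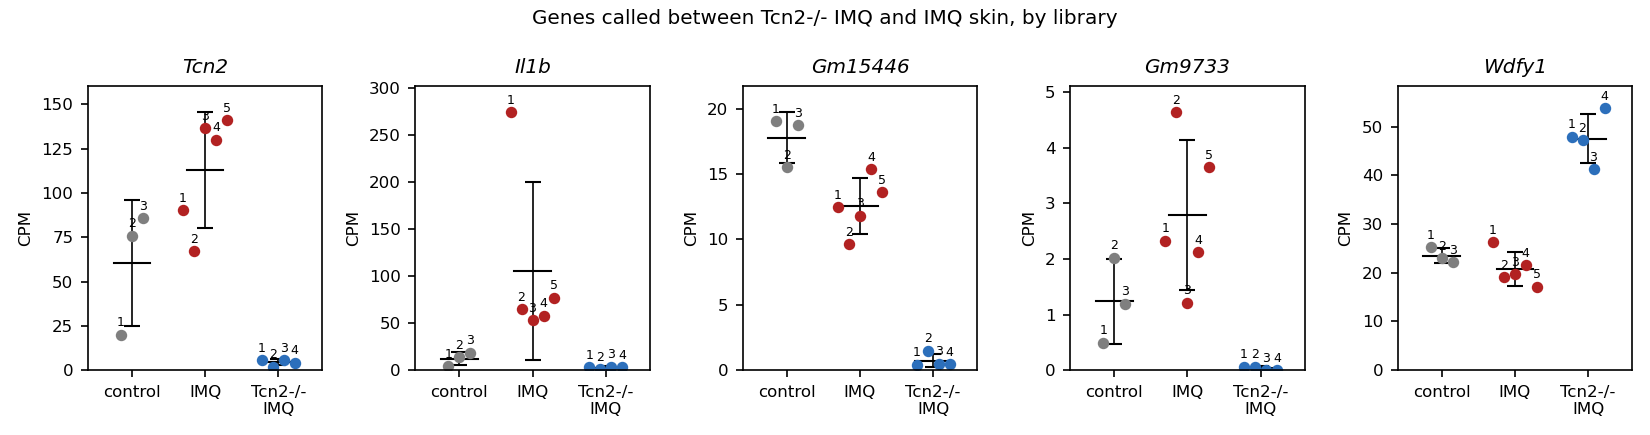
Levels of the 5 called genes in CPM (y axis, from 0) in each library, by group (x axis). Points are libraries with their replicate numbers, the long bar is the group mean and the whiskers are 1 SD, ending at 0 where they would pass it. Tcn2, Il1b, Gm15446 and Gm9733 are lower in all 4 Tcn2-/- IMQ libraries than in all 5 IMQ libraries, and Wdfy1 is higher.

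Il1b (ENSMUSG00000027398, GRCm39 chromosome 2, 129206490 to 129213059, minus strand) fell to below its level in control skin. It stood at 274, 64.6, 53.1, 57.9 and 77 CPM in IMQ libraries, with replicate 1 far above the others. The Tcn2-/- IMQ values were 2.73, 0.834, 3.52 and 3.27 CPM, from 46, 14, 57 and 56 counts. The controls held 4.34, 13.4 and 18.5 CPM, so every Tcn2-/- IMQ library was below the lowest control. All 4 Tcn2-/- IMQ libraries were low alike, including replicates 3 and 4. The means were 105 ± 94.6 CPM (SD, n = 5) in IMQ skin and 2.59 ± 1.22 CPM (n = 4) in Tcn2-/- IMQ skin, a log2 change of −5.34 (SE 0.73, adjusted p = 0.0349). In bulk skin, fewer cells of a type and less RNA per cell cannot be told apart. The change was −4.59 without IMQ replicate 1, where it was still called (adjusted p = 0.013). The call ended on leaving out any other single IMQ library (adjusted p 0.0582 to 0.0764), any single Tcn2-/- IMQ library (0.0974 to 0.173), control replicate 2 (0.0782) or control replicate 3 (0.05), with changes of −5.05 to −5.53. Il1bos, an antisense transcript that overlaps Il1b on the plus strand (129211817 to 129217668), stood at 0.242 to 2.11 CPM in IMQ and 0.357 to 2.02 CPM in Tcn2-/- IMQ libraries (0.01, SE 0.649, adjusted p = 0.996). Whether counting used strand is not stated, so reads of this pair could be mixed.

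The 250 bases upstream of the start sites of Il1b and of Socs3, a feedback inhibitor that STAT3 induces, are shown because the study's title joins IL-1β and STAT3. They are from RefSeq, build GRCm38.p6, and run 5′ to 3′ on the minus strand, at chr2:129371140-129371389 for Il1b and chr11:117969367-117969616 for Socs3. Capitals mark matches on either strand to TATAAA, to the STAT letters TTCNNNGAA and to the NF-kappaB letters, GGGA and CC parted by 4 bases.
Il1b: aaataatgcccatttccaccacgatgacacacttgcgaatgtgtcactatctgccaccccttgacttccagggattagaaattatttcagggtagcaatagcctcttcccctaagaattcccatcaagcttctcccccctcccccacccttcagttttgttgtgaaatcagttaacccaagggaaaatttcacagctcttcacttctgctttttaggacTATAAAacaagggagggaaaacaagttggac
Socs3: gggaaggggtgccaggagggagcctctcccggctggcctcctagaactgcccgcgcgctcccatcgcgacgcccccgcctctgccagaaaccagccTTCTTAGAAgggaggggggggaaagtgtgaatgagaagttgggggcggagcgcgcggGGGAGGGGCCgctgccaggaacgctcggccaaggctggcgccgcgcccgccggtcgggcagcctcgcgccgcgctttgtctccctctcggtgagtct
The Il1b window held TATAAA beginning at base −31 from the start site and no match to the STAT or NF-kappaB letters, which says only that these letters are not in this window. The Socs3 window held 1 STAT match beginning at −154 and 1 NF-kappaB match at −97. Of 32851 windows of this length before mouse genes, 7.02% held the STAT letters, 17.6% the NF-kappaB letters and 12.4% TATAAA. The motifs do not overlap each other in these windows, and a match is a description and not a shown binding site.

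The IL-1 and IL-36 family list held 32 measured genes of cytokines, receptors, adaptors and inflammasomes, of which Il1b was called. Its median log2 change was −0.50, 27 changes were negative, and 6 genes were without overlap, all lower, beside 3.18% of all genes tested. By an unadjusted p below 0.05 there were 9, all lower, and DESeq2 called 6 lower. In Tcn2-/- IMQ replicates 1 to 4, 26, 29, 11 and 8 of the 32 were below every IMQ library. Above every IMQ library were 0, 1, 7 and 11. The shares below were 81.2%, 90.6%, 34.4% and 25%, beside 26.6%, 31.5%, 15.1% and 16.7% of all genes tested. Those above were 0%, 3.12%, 21.9% and 34.4%, beside 26.3%, 30.1%, 16.2% and 13.7%. The summed level was 923, 883, 2495 and 2964 CPM against 1971 to 3243 CPM in IMQ libraries. Among the cytokines, Il1a was at −0.21 (SE 0.775) and Il18, which epidermis makes constitutively, at 0.82 (SE 0.42, adjusted p = 0.472). The IL-36 cytokine genes, listed in the table as Il1f6 (IL-36α) and Il1f9 (IL-36γ), had libraries on both sides of the IMQ range. Il1f6 stood at 96.4, 80.5, 102, 162 and 150.2 CPM in IMQ and 30.2, 22.3, 212 and 185 CPM in Tcn2-/- IMQ libraries. Il1f9 stood at 293, 192, 123, 198 and 175 CPM and 26.6, 50, 218 and 318 CPM. Replicates 1 and 2 were below every IMQ library for both genes, and replicates 3 and 4 were above 4 or all 5 of them, so that the group changes were −0.069 (SE 0.825) and −0.36 (SE 0.693).

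Several receptor and inflammasome genes of the family were lower without overlap and were not called. Il18rap and Il18r1, the chains of the interleukin-18 receptor on T and NK cells, stood at 1.54, 0.715, 0.989 and 0.817 and 1.49, 1.31, 2.04 and 1.17 CPM in Tcn2-/- IMQ libraries, against 6.54 to 21 and 4.06 to 12.3 CPM in IMQ libraries. Neither passed (adjusted p = 0.0644 and 0.0703; changes −3.48 and −2.23), and in controls they stood at 1.81 to 8.54 and 19.2 to 38.6 CPM. Nlrp3, the sensor of the inflammasome that matures interleukin-1β, stood at 3.88 to 10.8 CPM in IMQ and 0.832, 0.119, 1.98 and 1.93 CPM in Tcn2-/- IMQ libraries (−2.52, SE 0.813, adjusted p = 0.253). Casp4, an inflammasome protease, stood at 117, 109, 24.4, 25.5 and 24.8 CPM in IMQ and 17.1, 16.3, 13.9 and 19.7 CPM in Tcn2-/- IMQ libraries (−1.84, SE 0.54, adjusted p = 0.213), and Casp1, which cleaves the interleukin-1β precursor, overlapped (−1.61, SE 0.488, adjusted p = 0.231). Myd88, the adaptor of IL-1 and Toll-like receptors, stood at 54.5 to 63.3 CPM in IMQ libraries and 24.3, 21.9, 41.4 and 49 CPM in Tcn2-/- IMQ libraries (−0.74, SE 0.253, adjusted p = 0.29). Il1r2, the decoy receptor, was at −0.93 (adjusted p = 0.42) and the receptor antagonist Il1rn at −0.33 (adjusted p = 0.787).

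**Figure D2:**
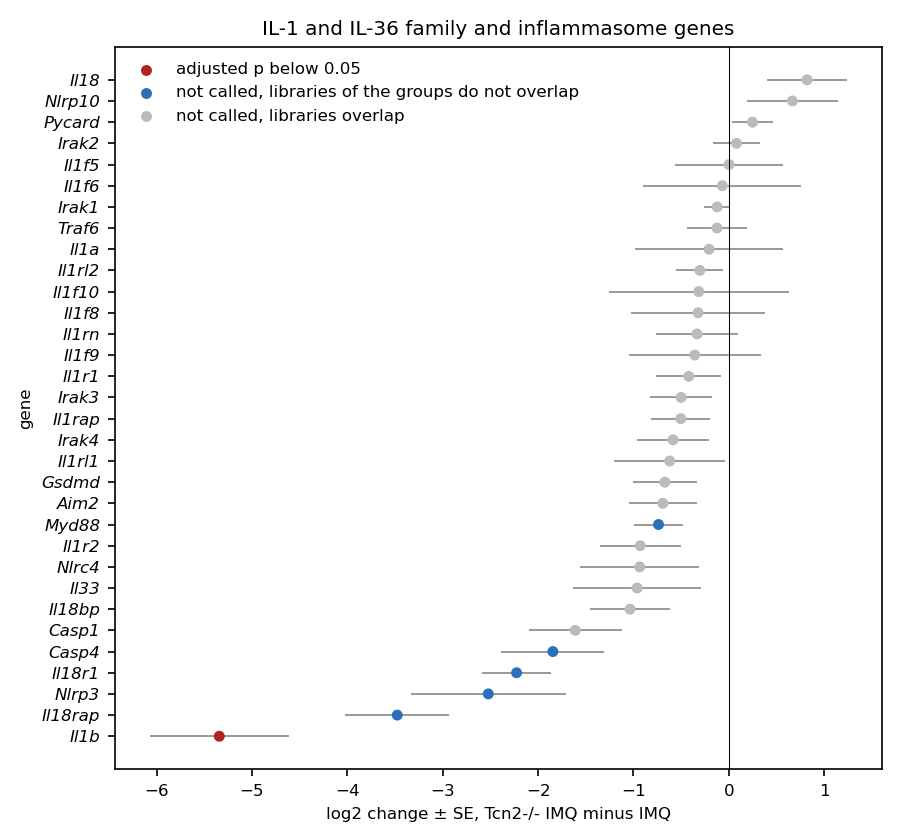
Log2 change with its SE (x axis) of the 32 measured IL-1 and IL-36 family and inflammasome genes (y axis), Tcn2-/- IMQ minus IMQ skin. Il1b, at −5.34, is the 1 called gene (red); the 5 further genes whose libraries do not overlap (blue) lie between Myd88 at −0.74 and Il18rap at −3.48, and Il1f6 and Il1f9 lie near 0.

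Stat3 itself (GRCm39 chromosome 11, 100775924 to 100830366) stood at 283, 224, 262, 219 and 252 CPM in IMQ and 175, 106, 186 and 224 CPM in Tcn2-/- IMQ libraries. Replicate 2 was the lowest and replicate 4 lay within the IMQ range, and the groups overlapped (−0.52, SE 0.223, adjusted p = 0.385). Socs3 stood at 81.8, 39.3, 65.2, 34.6 and 63.1 CPM in IMQ and 25.6, 13.9, 46.1 and 40.5 CPM in Tcn2-/- IMQ libraries. Here too replicates 1 and 2 were lowest and replicates 3 and 4 lay within the IMQ range (−0.85, SE 0.366, adjusted p = 0.393). Of the 28 measured genes of IL-6, JAK and STAT3 signalling (median −0.49) edgeR called none, 9 lower and 1 higher had an unadjusted p below 0.05, DESeq2 called 0 and limma voom 0. The groups were without overlap for 4, all lower, beside 3.18% of all genes tested. One of these was the kinase gene Jak2, at 86.3, 75.1, 118, 86.1 and 99 CPM in IMQ and 65.4, 58.7, 53.3 and 66.3 CPM in Tcn2-/- IMQ libraries, where all 4 were near one another (−0.61, SE 0.19, adjusted p = 0.243). Il6, a cytokine that activates STAT3, stood at 0.416, 0, 7.73 and 8.69 CPM in Tcn2-/- IMQ libraries against 0.849 to 4.54 CPM in IMQ libraries, so replicates 3 and 4 were above and replicates 1 and 2 below every IMQ library (0.66, SE 1.01, adjusted p = 0.823). Fos, an immediate early gene in the same list, was at −1.91 (SE 0.678, adjusted p = 0.3) with overlap.

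Of the readouts of psoriasis-like skin, 20 were tested and Il1b was called, while Il17a, Il22 and Il23a were too low to test. Of the 20, 16, 17, 7 and 6 were below the lowest IMQ library in Tcn2-/- IMQ replicates 1, 2, 3 and 4, and 0, 2, 6 and 7 were above the highest. Over all genes tested the shares below were 26.6%, 31.5%, 15.1% and 16.7%, and the shares above were 26.3%, 30.1%, 16.2% and 13.7%, so replicates 1 and 2 lay outside the IMQ range more often in both directions.

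Several cytokine genes of the IL-23 and IL-17 axis had fewer counts in Tcn2-/- IMQ skin, but not all. Il17c and Il20 were also too low to test. Over the IMQ and the Tcn2-/- IMQ libraries, Il17c had 35 and 27 counts and Il20 had 13 and 50. The highest single library of the series held 17 counts of Il17c and 41 of Il20. Il17f, made by type 17 lymphocytes, stood at 1.52, 0.646, 1.39, 1.7 and 1.26 CPM in IMQ and 0.0594, 0.0596, 0.0618 and 0 CPM in Tcn2-/- IMQ libraries, 109 against 3 counts, or a ratio of 29.6 with a 95% counting interval of 9.87 to 146. It did not pass (−4.65, SE 0.838, adjusted p = 0.0983) but was called when the 9 compared libraries were fitted alone (adjusted p = 0.015). Il17a was not tested for low counts and had 51 counts over the IMQ libraries and 1 over the Tcn2-/- IMQ libraries. The ratio was 41.6 (interval 7.13 to 1673), and IMQ replicates 1 and 5 held 20 and 27 of the 51. Without IMQ replicate 5 the Il17a ratio was 24.5 (interval 3.99 to 1006.1). Il22 had 11 counts over the IMQ libraries and 0 over the Tcn2-/- IMQ libraries, at least 2.99-fold lower with a floor of 3 counts over the group. IMQ replicate 1 held 10 of the 11, and without it 1 count against 0 gives no fold. Il23a, the cytokine chain that sustains type 17 cells, had 101 and 18 counts, of which IMQ replicate 1 alone held 66. Il12b, the other chain of interleukin-23, had 36 and 1 counts (ratio 29.3, interval 4.94 to 1190.4; adjusted p = 0.132). Of 21 measured genes of the IL-23 and IL-17 axis (median −0.81) edgeR called none, 9 lower and 1 higher had an unadjusted p below 0.05, DESeq2 called 5 lower and limma voom 0. The groups were without overlap for 5, all lower, beside 3.18% of all genes tested. In Tcn2-/- IMQ replicates 1 to 4, 10, 12, 10 and 8 of the 21 were below every IMQ library. Above every IMQ library were 2, 2, 3 and 5. The summed level of the list was 588, 513, 631 and 848 CPM against 577 to 798 CPM in IMQ libraries. By that measure replicate 2 was below and replicate 4 above every IMQ library.

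Tnf and some chemokine genes were lower without overlap, and others were not. Tnf stood at 10.3, 1.82, 1.51, 3.7 and 2.88 CPM in IMQ and 0.416, 0.834, 0.927 and 0.292 CPM in Tcn2-/- IMQ libraries, without overlap (−2.70, SE 0.658, adjusted p = 0.149). Cxcl2, a neutrophil attractant, stood at 232, 34.2, 5.09, 24.4 and 30.9 CPM and 3.33, 0, 2.84 and 1.81 CPM, also without overlap (−5.03, SE 1.27, adjusted p = 0.161). Ccl3, which attracts monocytes and T cells, stood at 69.9, 13.2, 2.36, 14.1 and 12.6 CPM and 1.31, 0.298, 0.68 and 0.642 CPM (−4.92, SE 1.01, adjusted p = 0.123). IMQ replicate 1 was the highest library for all 3. Cxcl1 (−0.79, SE 0.782, adjusted p = 0.717) and Ccl20, which attracts type 17 cells (−2.55, SE 1.29, adjusted p = 0.469), overlapped. Among 22 TNF and NF-kappaB genes 8 were without overlap, all lower (median −0.32), for instance Traf1, an adaptor that NF-kappaB induces, at 6.18 to 10.3 CPM in IMQ and 3.09, 2.62, 2.91 and 3.33 CPM in Tcn2-/- IMQ libraries, and the lymphotoxin gene Ltb (−2.81, SE 0.575, adjusted p = 0.123). Of 33 chemokine genes 8 were without overlap, all lower (median −0.40). The share over all genes tested was 3.18% lower without overlap. Of the TNF and NF-kappaB genes edgeR called none, 8 lower had an unadjusted p below 0.05, DESeq2 called 4 lower and limma voom 0. Of the chemokine genes edgeR called none, 9 lower and 1 higher had an unadjusted p below 0.05, DESeq2 called 6 lower and 1 higher and limma voom 0.

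Both calprotectin genes were lower in every Tcn2-/- IMQ library than in any IMQ library, and S100a8 was still above every control library. S100a8, a calprotectin subunit of neutrophils and activated keratinocytes, stood at 5291, 1589, 1302, 1749.8 and 1454 CPM in IMQ, 148, 337, 388 and 592 CPM in Tcn2-/- IMQ and 9.68, 8.26 and 31.7 CPM in control libraries. The groups did not overlap and the change did not pass (−2.64, SE 0.605, adjusted p = 0.134). Its partner S100a9 stood at 6005, 2195, 1058, 1086 and 1601 CPM in IMQ and 115, 114, 541 and 656 CPM in Tcn2-/- IMQ libraries, with replicates 1 and 2 lowest (−2.74, SE 0.759, adjusted p = 0.187). Lcn2, a siderophore-binding protein of neutrophils and inflamed epithelium, stood at 819, 304, 63.3, 73.1 and 138 CPM and 20.3, 37.6, 73.9 and 92.4 CPM and overlapped (−2.32, SE 0.76, adjusted p = 0.262). Of 28 antimicrobial and alarmin genes 5 were without overlap, all lower, beside 3.18% of all genes tested, with a median of −1.86. In Tcn2-/- IMQ replicates 1 to 4, 22, 23, 6 and 8 of them were below every IMQ library, and 1, 1, 5 and 4 above. The shares below were 78.6%, 82.1%, 21.4% and 28.6%, beside 26.6%, 31.5%, 15.1% and 16.7% of all genes tested. The summed level was 1361, 1049, 4741 and 4086 CPM, below the 6016 to 15781 CPM of IMQ libraries in all 4. In this list edgeR called none, 15 lower had an unadjusted p below 0.05, DESeq2 called 7 lower and limma voom 0. Reads of S100 and Stfa family copies may be divided between them, which leaves single members uncertain.

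Of 27 measured neutrophil genes 13 were without overlap, all lower, beside 3.18% of all genes tested, and 26 changes were negative (median −2.32). Their mean log2 CPM was 4.09 to 5.96 in IMQ libraries and 1.86, 1.03, 3.27 and 3.07 in Tcn2-/- IMQ libraries, with IMQ replicate 1 highest. The summed level of the list was 1971, 2359, 7037 and 7034 CPM against 6211 to 20628 CPM in IMQ libraries. By that measure replicates 3 and 4 lay within the IMQ range. In replicates 1 to 4, 25, 26, 15 and 15 of the 27 were below every IMQ library. The shares were 92.6%, 96.3%, 55.6% and 55.6%, beside 26.6%, 31.5%, 15.1% and 16.7% of all genes tested. Csf3r, the receptor for granulocyte colony-stimulating factor, stood at 56.5, 38.5, 46.5, 48.2 and 81.3 CPM and 7.37, 1.49, 20.1 and 15.3 CPM (−2.29, SE 0.746, adjusted p = 0.258). Clec4e, a pattern receptor of neutrophils and macrophages, stood at 41.3, 8.11, 8.42, 11.3 and 13.7 CPM and 0.832, 0, 0.742 and 0.817 CPM (−4.78, SE 0.899, adjusted p = 0.117), and Mmp8, neutrophil collagenase, at 6.19 to 58.1 and 0.357 to 4.38 CPM (−3.12, SE 0.977, adjusted p = 0.244). Of the list edgeR called none, 18 lower had an unadjusted p below 0.05, DESeq2 called 13 lower and limma voom 0. The skeletal muscle list stood higher in the same libraries, with a mean log2 CPM of 8.76, 7.68, 6.75 and 7.09 in Tcn2-/- IMQ and 5.36 to 6.55 in IMQ libraries. Its part in the immune results was not tested, and an edgeR fit with this muscle score as a covariate called 0 genes, with 943 at an unadjusted p below 0.05. The score does not overlap between the groups, so this fit can hardly separate it from genotype. Tcn2 itself lost its call there (−4.97, adjusted p = 0.223).

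Some antigen-presenting cell genes were lower, and none was called. Clec7a, Ccr2, Flt3, Napsa and Sirpb1a were named for their small p among genes without overlap, so their lack of overlap was a condition of naming. Clec7a, the β-glucan receptor dectin-1 of myeloid cells, stood at 21.3, 12.6, 21.2, 33.7 and 28.9 CPM in IMQ and 1.66, 0.417, 0.618 and 0.292 CPM in Tcn2-/- IMQ libraries, and missed the threshold narrowly (−4.96, SE 0.721, adjusted p = 0.053). Ccr2, the receptor that brings monocytes into tissue, stood at 51.2, 86.7, 72.5, 148 and 115 CPM and 4.4, 1.49, 4.88 and 2.8 CPM (−4.80, SE 0.801, adjusted p = 0.0709). Flt3, a growth factor receptor of dendritic cells, stood at 1.86 to 4.48 CPM and 0.475, 0.179, 0.495 and 0.292 CPM (−3.07, SE 0.477, adjusted p = 0.0644). Napsa, an aspartic protease, stood at 6.18 to 7.58 CPM and 1.49, 0.357, 0.989 and 0.408 CPM (−3.15, SE 0.5, adjusted p = 0.0679), and Sirpb1a, a receptor of the SIRP family, at 6.35 to 33.4 CPM and 1.13, 0.536, 0.433 and 0.175 CPM (−4.93, SE 0.84, adjusted p = 0.0709). Clec7a, Ccr2, Flt3, Napsa and Sirpb1a were all called when the 9 compared libraries were fitted alone, and also without control replicate 1. Cd74, the invariant chain of MHC class II, stood at 268, 360.0, 456, 607 and 429.5 CPM in IMQ, 87.2, 24.1, 15.6 and 34.3 CPM in Tcn2-/- IMQ and 113, 917 and 1464 CPM in control libraries, and H2-Aa, a class II chain, at 129 to 215, 8.22 to 46.8 and 63 to 616 CPM. Tcn2-/- IMQ replicate 1 was the highest of its group for both, and the changes were −3.40 (adjusted p = 0.123) and −3.15 (adjusted p = 0.128).

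Of 28 dendritic and Langerhans cell genes 13 were without overlap, all lower, beside 3.18% of all genes tested (median −1.85). In this list edgeR called none, 18 lower had an unadjusted p below 0.05, DESeq2 called 12 lower and limma voom 5 lower. In Tcn2-/- IMQ replicates 1 to 4, 20, 24, 17 and 16 of them were below every IMQ library (71.4%, 85.7%, 60.7% and 57.1%), beside 26.6%, 31.5%, 15.1% and 16.7% of all genes tested. Cd207, the langerin gene that defines Langerhans cells, stood at 0.233 to 4.5 CPM in IMQ and 8.74, 1.73, 0.371 and 5.08 CPM in Tcn2-/- IMQ libraries (0.48, SE 0.883, adjusted p = 0.854). Replicates 1 and 4 were thus above every IMQ library for Cd207, and replicates 2 and 3 were within the IMQ range. Among macrophage genes, Csf1r, the receptor for macrophage colony-stimulating factor, stood at 277, 182, 506, 646 and 427 CPM in IMQ and 115, 24.5, 247 and 223 CPM in Tcn2-/- IMQ libraries, so replicates 3 and 4 lay within the IMQ range (−1.42, SE 0.875, adjusted p = 0.55). Adgre1, which encodes F4/80, stood at 72.1, 14.9, 263 and 213 CPM against 76.1 to 874 CPM and the complement gene C1qa at 97.2, 15.9, 269 and 158 CPM against 131 to 301 CPM. Of 31 monocyte and macrophage genes 24, 30, 6 and 8 were below every IMQ library in replicates 1 to 4 (77.4%, 96.8%, 19.4% and 25.8%; median −0.68), so most lay within or above the IMQ range in replicates 3 and 4. The groups were without overlap for 5 of the 31, all lower, beside 3.18% of all genes tested. Of the list edgeR called none, 7 lower had an unadjusted p below 0.05, DESeq2 called 5 lower and limma voom 1 lower. Among those 5 were Cd14, a lipopolysaccharide co-receptor, at 32.1 to 208 CPM and 19.3, 6.25, 25 and 18.7 CPM, and Chil3, a chitinase-like gene of activated macrophages and neutrophils, at 16.7 to 98.4 CPM and 2.26, 0, 0.804 and 1.4 CPM. Tlr9, a sensor of unmethylated DNA, had the lowest change in the Toll-like receptor list (−3.20, SE 1.11, adjusted p = 0.293). Of its 17 genes 4 were without overlap, all lower, beside 3.18% of all genes tested. In Tcn2-/- IMQ replicates 1 to 4, 16, 16, 6 and 4 of them were below every IMQ library (94.1%, 94.1%, 35.3% and 23.5%). Of the list edgeR called none, 3 lower had an unadjusted p below 0.05, DESeq2 called 2 lower and limma voom 0.

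Of 38 T and NK cell genes 14, 24, 25 and 29 were below every IMQ library in Tcn2-/- IMQ replicates 1 to 4 (36.8%, 63.2%, 65.8% and 76.3%), beside 26.6%, 31.5%, 15.1% and 16.7% of all genes tested. Replicate 1 had the fewest, and most of the list lay within the IMQ range there. The summed level of the list was 305, 335, 217 and 173 CPM in replicates 1 to 4 against 201 to 371 CPM in IMQ libraries, so replicate 4 alone was below the IMQ range by that measure. Their median was −1.71 and 12 were without overlap, all lower, beside 3.18% of all genes tested. Cd3e, a chain of the T cell receptor complex, stood at 1.28, 3.23, 1.7, 1.52 and 1.98 CPM in IMQ, 1.13, 1.19, 0.556 and 0.35 CPM in Tcn2-/- IMQ and 1.15, 7.13 and 8.29 CPM in control libraries (−1.26, SE 0.572, adjusted p = 0.419). The antigen receptor genes Trac (−1.05, adjusted p = 0.622) and Cd3g (−0.64, adjusted p = 0.699) overlapped, with replicates 1 and 2 at 2.5 and 3.69 CPM of Cd3g and replicates 3 and 4 at 0.618 and 0.583 CPM. Cxcr6, Icos and Cd52 were named for their small p among genes without overlap. Their nearness to the threshold and lack of overlap were thus conditions of naming. Cxcr6, a homing receptor, stood at 5.94 to 11 CPM and 1.31, 1.43, 0.247 and 0.875 CPM (−3.09, SE 0.516, adjusted p = 0.0709). The costimulator Icos stood at 4.48 to 9.87 CPM and 1.07, 0.655, 0.68 and 1.17 CPM (−2.99, SE 0.508, adjusted p = 0.0709). Cd52, a surface glycoprotein of lymphocytes and myeloid cells, stood at 24.7, 43, 28.5, 50.6 and 41.1 CPM and 7.13, 3.22, 4.39 and 2.45 CPM (−3.13, SE 0.477, adjusted p = 0.0644). Of the T and NK cell list edgeR called none, 22 lower had an unadjusted p below 0.05, DESeq2 called 9 lower and limma voom 1 lower.

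B cell genes had a median of −3.81 over 16 measured members, all 16 negative. The groups were without overlap for 4, all lower, beside 3.18% of all genes tested. In this list edgeR called none, 12 lower had an unadjusted p below 0.05, DESeq2 called 8 lower and limma voom 0. Of the 16, 5, 12, 6 and 6 were below every IMQ library in replicates 1 to 4 (31.2%, 75%, 37.5% and 37.5%), beside 26.6%, 31.5%, 15.1% and 16.7% of all genes tested. Ighm, the IgM heavy chain, stood at 299, 173, 133, 392 and 60.5 CPM in IMQ and 33.8, 14.4, 28.1 and 26.7 CPM in Tcn2-/- IMQ libraries (−3.04, SE 0.637, adjusted p = 0.125), and Blk, a B cell kinase that some type 17 γδ T cells also use, at 2.51 to 6.12 CPM and 0.654, 0.0596, 0.0618 and 0.0583 CPM (−4.22, SE 0.995, adjusted p = 0.137). Mcpt8, a basophil protease, had 125 counts over IMQ and 2 over Tcn2-/- IMQ libraries (ratio 50.9, interval 13.8 to 425). IMQ replicate 5 held 78 of the 125, and without it the ratio was 24.0 (interval 6.27 to 204). Siglecf, an eosinophil receptor, stood at 0.822 to 4.26 CPM and 0.178, 0.179, 0.371 and 0.175 CPM (−3.15, SE 0.69, adjusted p = 0.132). In the mast cell list (16 measured, median −0.43, 2 lower at an unadjusted p below 0.05, 1 lower by DESeq2, 0 by limma voom) Mcpt8 was the 1 gene without overlap, beside 3.18% of all genes tested. Type I interferon response genes had a median of −1.46 over 40 members, all 40 negative, and 5 were lower without overlap, beside 3.18% of all genes tested. In this list edgeR called none, 23 lower had an unadjusted p below 0.05, DESeq2 called 3 lower and limma voom 0. IMQ replicate 2 set much of that list apart, with a mean log2 CPM of 6.40 against 3.62 to 4.31 in the other IMQ libraries and 2.93, 2.24, 4.15 and 3.54 in the Tcn2-/- IMQ libraries. Cxcl9, an interferon-induced chemokine, showed it at 9.61, 55.5, 8.36, 7.46 and 3.9 CPM in IMQ and 1.9, 1.49, 0.927 and 0.35 CPM in Tcn2-/- IMQ libraries (−3.85, SE 0.829, adjusted p = 0.128).

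Erythrocyte genes stood lower in Tcn2-/- IMQ skin, with a median of −4.03 over 10 members. Of these, 5 were lower without overlap, beside 3.18% of all genes tested. Hbb-bs, a β-globin, stood at 101, 244, 721, 1328 and 476 CPM in IMQ, 72.3, 23.4, 21.3 and 21.8 CPM in Tcn2-/- IMQ and 26.1, 112 and 97.4 CPM in control libraries (−4.05, SE 0.797, adjusted p = 0.123). Alas2, the first enzyme of haem synthesis in red cells, stood at 7.05, 12.7, 52.5, 126 and 36.6 CPM and 3.98, 1.43, 1.85 and 1.81 CPM (−4.37, SE 0.849, adjusted p = 0.122). The IMQ libraries spread widely for both, with replicates 1 and 2 lowest. Of the list edgeR called none, 9 lower had an unadjusted p below 0.05, DESeq2 called 7 lower and limma voom 2 lower, and globin copies share sequence. Of 24 endothelial and adhesion genes 1 was lower without overlap (median −0.62, 1 lower at an unadjusted p below 0.05, 0 by DESeq2, 0 by limma voom), near the 3.18% of all genes tested. It was the leukocyte adhesion molecule Vcam1, at 128, 40.9, 49.2, 43.6 and 52.5 CPM in IMQ and 14.4, 5.66, 28.1 and 33 CPM in Tcn2-/- IMQ libraries (−1.63, SE 0.704, adjusted p = 0.395).

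**Figure D3:**
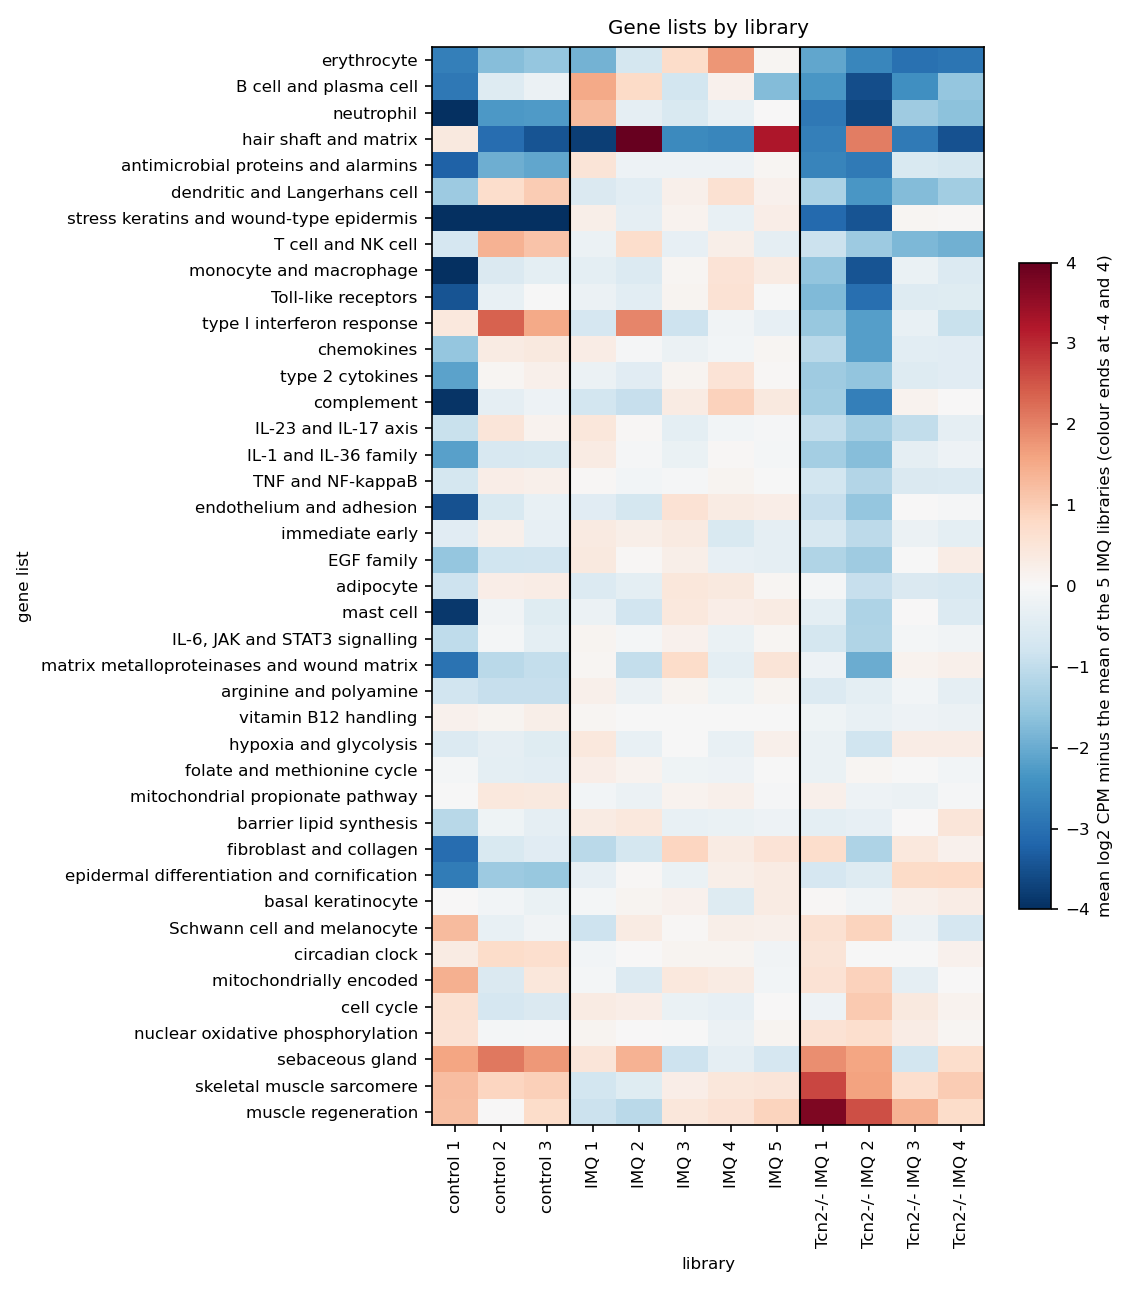
Mean log2 CPM of each gene list (rows) in each library (columns), minus the mean of the 5 IMQ libraries; red is higher and blue lower, and colours end at −4 and 4. Erythrocyte, B cell, neutrophil, dendritic cell and T cell lists are blue in all 4 Tcn2-/- IMQ libraries, the stress keratin list is blue in replicates 1 and 2 and near white in 3 and 4, and both muscle lists are red, most in replicate 1.

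Keratinocyte genes divided the Tcn2-/- IMQ libraries. Krt16, a keratin of hyperproliferative epidermis, stood at 2198, 1611, 2267, 1666 and 4031 CPM in IMQ libraries. In Tcn2-/- IMQ replicates 1 and 2 it stood at 388 and 230.0 CPM and in replicates 3 and 4 at 5666 and 4211 CPM, below and above every IMQ library, with controls at 10.7, 24.2 and 18.5 CPM. The group change was 0.16 (SE 0.766, adjusted p = 0.951), and an average over these 4 libraries describes none of them. Krt6a, its partner in wounded epidermis, stood at 2421, 1406, 2137, 1134 and 2587 CPM in IMQ and 222, 209.9, 3846 and 2657 CPM in Tcn2-/- IMQ libraries (−0.16, SE 0.729, adjusted p = 0.947). The basal keratin Krt14 (3549, 3172, 17429 and 11108 CPM against 4887 to 13437 CPM; 0.23, SE 0.526, adjusted p = 0.887) and the suprabasal keratin Krt10 (1392, 1617, 8124 and 7746 CPM against 1719 to 5948 CPM; 0.23, SE 0.648, adjusted p = 0.909) were likewise lower in replicates 1 and 2 than in 3 and 4. The sign of the change of Krt6a and Krt16 depends on which of the 4 libraries are kept. Without replicates 1 and 2 the change of Krt6a was 0.75 (adjusted p = 0.848), and without replicates 3 and 4 it was −3.18 (adjusted p = 0.0192).

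**Figure D4:**
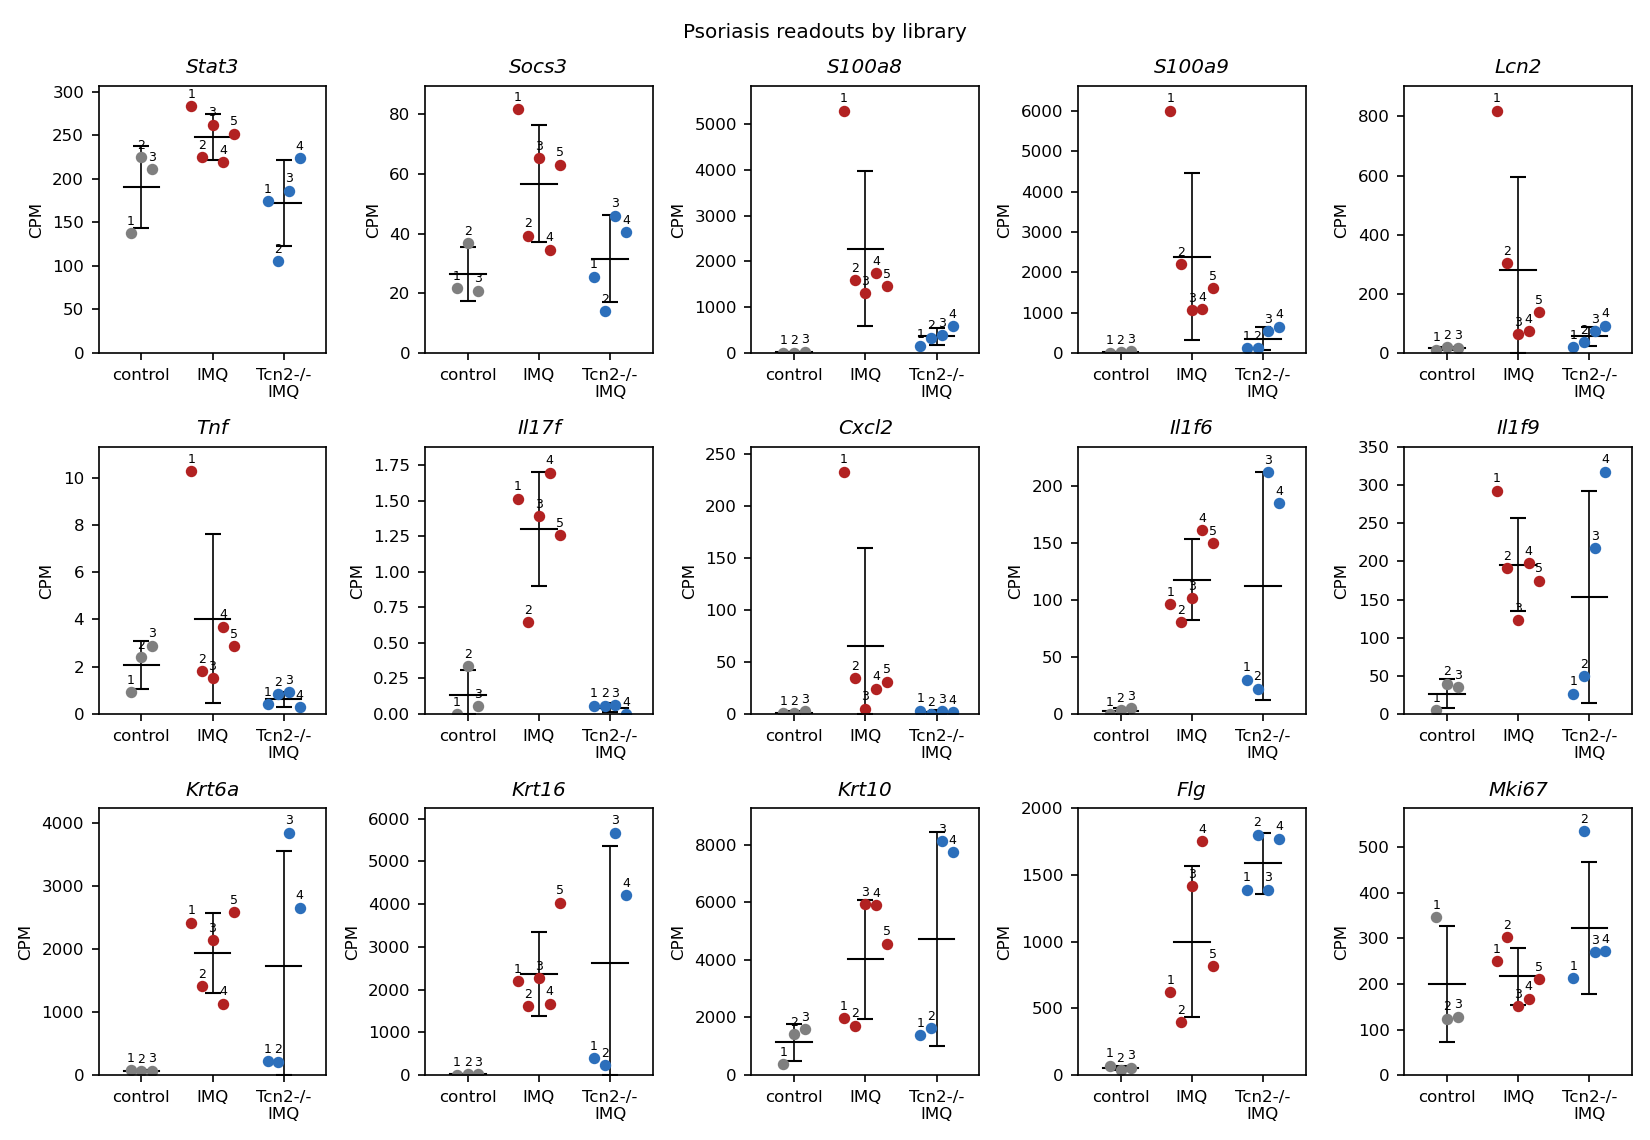
Levels of 15 psoriasis readouts in CPM (y axes, from 0) in each library, by group (x axes). Points are libraries with their replicate numbers, long bars are means and whiskers 1 SD, ending at 0 where they would pass it. S100a8, S100a9, Tnf, Il17f and Cxcl2 do not overlap between IMQ and Tcn2-/- IMQ skin; Krt6a, Krt16 and Il1f6 lie below the IMQ libraries in Tcn2-/- IMQ replicates 1 and 2 and above them in replicates 3 and 4.

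Of 39 stress keratin and wound-type epidermal genes 38, 38, 7 and 7 were below every IMQ library in Tcn2-/- IMQ replicates 1, 2, 3 and 4, and 0, 0, 10 and 8 were above. The shares below were 97.4%, 97.4%, 17.9% and 17.9%, beside 26.6%, 31.5%, 15.1% and 16.7% of all genes tested. Those above were 0%, 0%, 25.6% and 20.5%, beside 26.3%, 30.1%, 16.2% and 13.7%. The list median was −0.68, and edgeR called none, 6 lower had an unadjusted p below 0.05, DESeq2 called 1 lower and limma voom 0. The 5 without overlap, beside 3.18% of all genes tested, were members of the Sprr2 family, precursors of the cornified envelope, and these were low in replicates 3 and 4 too. Sprr2b stood at 192, 88.2, 45.7, 161 and 106 CPM in IMQ and 5.17, 2.32, 20.6 and 42.2 CPM in Tcn2-/- IMQ libraries (−2.75, SE 0.758, adjusted p = 0.186), and Sprr2f at 24.9 to 83.7 CPM and 1.66, 0.119, 11.4 and 23.5 CPM (−2.56, SE 0.936, adjusted p = 0.316). Reads shared among Sprr2 copies leave single members uncertain. Hbegf, a growth factor of wounded keratinocytes, stood at 94.5, 49, 106, 35.2 and 51.1 CPM and 9.98, 7.15, 42.2 and 41.5 CPM (−1.41, SE 0.532, adjusted p = 0.336).

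More differentiation genes stood above the IMQ range in replicates 3 and 4 than in 1 and 2, but Flg, Flg2, Acer1 and Krt24 did not split so. Of 49 measured cornification genes 9, 7, 31 and 33 were above every IMQ library in replicates 1 to 4 and 23, 21, 1 and 4 below (median 0.20). The shares above were 18.4%, 14.3%, 63.3% and 67.3%, beside 26.3%, 30.1%, 16.2% and 13.7% of all genes tested. Those below were 46.9%, 42.9%, 2.04% and 8.16%, beside 26.6%, 31.5%, 15.1% and 16.7%. In this list edgeR called none, 2 lower and 7 higher had an unadjusted p below 0.05, DESeq2 called 1 higher and limma voom 0. Flg, the filaggrin precursor, stood at 619, 398, 1415, 1752 and 815 CPM in IMQ and 1389.8, 1803, 1391 and 1772 CPM in Tcn2-/- IMQ libraries, so replicates 2 and 4 were above the highest IMQ library and replicates 1 and 3 within the IMQ range (0.67, SE 0.387, adjusted p = 0.521). Flg2 stood at 38.4, 15.8, 33, 132 and 37.9 CPM and 288, 292, 123 and 459 CPM (2.50, SE 0.653, adjusted p = 0.167), and Acer1, an alkaline ceramidase of differentiated epidermis, at 43.9 to 67.6 CPM and 79.4, 84.9, 68.1 and 82.1 CPM without overlap (0.57, SE 0.152, adjusted p = 0.172). Krt24, a keratin of differentiated epithelium, stood at 0.0583, 0.117, 0, 0 and 0.24 CPM in IMQ, 4.75, 2.56, 0.989 and 3.03 CPM in Tcn2-/- IMQ and 2.69, 7.64 and 7.33 CPM in control libraries, so the IMQ libraries were the ones near 0 (4.97, SE 0.762, adjusted p = 0.0644). Basal keratinocyte genes (19 measured, median 0.11, 1 higher at an unadjusted p below 0.05, 1 higher by DESeq2, 0 by limma voom) had none without overlap, and Krt15, a basal and follicle bulge keratin, stood at 563, 335, 179 and 154 CPM against 76.9 to 180.4 CPM (1.41, SE 0.4, adjusted p = 0.197). The proliferation marker Mki67 stood at 251, 303, 152, 167 and 210.3 CPM in IMQ and 213, 536, 269.6 and 272 CPM in Tcn2-/- IMQ libraries (0.57, SE 0.368, adjusted p = 0.566), highest in replicate 2.

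Skeletal muscle genes stood higher in Tcn2-/- IMQ skin, most in replicates 1 and 2. Acta1, the skeletal muscle actin, stood at 720.0, 899, 2183, 2089.9 and 2098 CPM in IMQ, 11468, 9373, 2805 and 4261 CPM in Tcn2-/- IMQ and 4049.7, 3133 and 5481 CPM in control libraries, without overlap between the IMQ groups (2.13, SE 0.491, adjusted p = 0.135). Mylpf, a fast-muscle myosin light chain, stood at 59.8, 115, 239.6, 194 and 270.5 CPM and 1957, 944, 397 and 466 CPM (2.42, SE 0.518, adjusted p = 0.128). Des, the intermediate filament protein desmin, stood at 193 to 558 CPM and 1597, 854, 826 and 849 CPM (1.43, SE 0.318, adjusted p = 0.132), and the fast troponin Tnni2 at 115 to 262 CPM and 1055, 567, 342 and 383 CPM (1.73, SE 0.378, adjusted p = 0.132). Of 45 sarcomere genes 17 were without overlap, all higher, beside 1.71% of all genes tested (median 1.53). In replicates 1 to 4, 42, 35, 20 and 31 were above every IMQ library (93.3%, 77.8%, 44.4% and 68.9%), beside 26.3%, 30.1%, 16.2% and 13.7% of all genes tested. Of 14 muscle regeneration genes 3 were without overlap, all higher (median 2.37), among them Myf6, a myogenic transcription factor, at 1.88 to 7.57 CPM and 28.7, 39.6, 10.4 and 11 CPM (2.26, SE 0.499, adjusted p = 0.132). Of the sarcomere genes edgeR called none, 37 higher had an unadjusted p below 0.05, DESeq2 called 31 higher and limma voom 0. Of the regeneration genes edgeR called none, 12 higher had an unadjusted p below 0.05, DESeq2 called 9 higher and limma voom 0. The summed sarcomere level was 14541 to 52318 CPM in Tcn2-/- IMQ, 5709 to 12438 CPM in IMQ and 19770.2 to 20778 CPM in control libraries.

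Further genes were named for their small p among genes without overlap. Of the higher ones, Mybph, a myosin-binding protein of muscle, stood at 2.33, 4.76, 5.94, 9.34 and 2.76 CPM in IMQ and 63.8, 32.6, 16.1 and 50.2 CPM in Tcn2-/- IMQ libraries (3.02, SE 0.511, adjusted p = 0.0709). Apobec2, a muscle member of the cytidine deaminase family, stood at 32.9 to 73.7 CPM and 178, 92.9, 275 and 132 CPM (adjusted p = 0.123). Chchd10, a mitochondrial protein abundant in muscle, stood at 12.1 to 20.3 CPM and 66, 42.8, 33.9 and 33.1 CPM (adjusted p = 0.123). Ppp1r3c, a glycogen-targeting phosphatase subunit, stood at 31.4 to 43.1 CPM and 216, 108, 63.5 and 164 CPM (1.79, SE 0.301, adjusted p = 0.0709). The transcription factor gene Atf5, active in the mitochondrial stress response, stood at 50.6 to 64.4 CPM and 98.3, 80.3, 90.9 and 80.9 CPM (0.62, SE 0.12, adjusted p = 0.122). Others of this rank were Fam25c, Sbk3, Lingo3, Clip4, Usp13, Trim7 and Slc26a7, at 0.79 to 2.74 with adjusted p of 0.0935 to 0.126. Among those lower and not of leukocytes alone, the ribosomal S6 kinase gene Rps6ka1 stood at 45.7 to 60.7 CPM and 27.3, 26.9, 33.1 and 29.2 CPM (−0.84, SE 0.135, adjusted p = 0.0703), and Dmxl2, which acts in endosome acidification, at 27.4 to 42.8 CPM and 20.6, 18, 18.4 and 21.6 CPM (−0.88, SE 0.158, adjusted p = 0.0983).

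**Figure D5:**
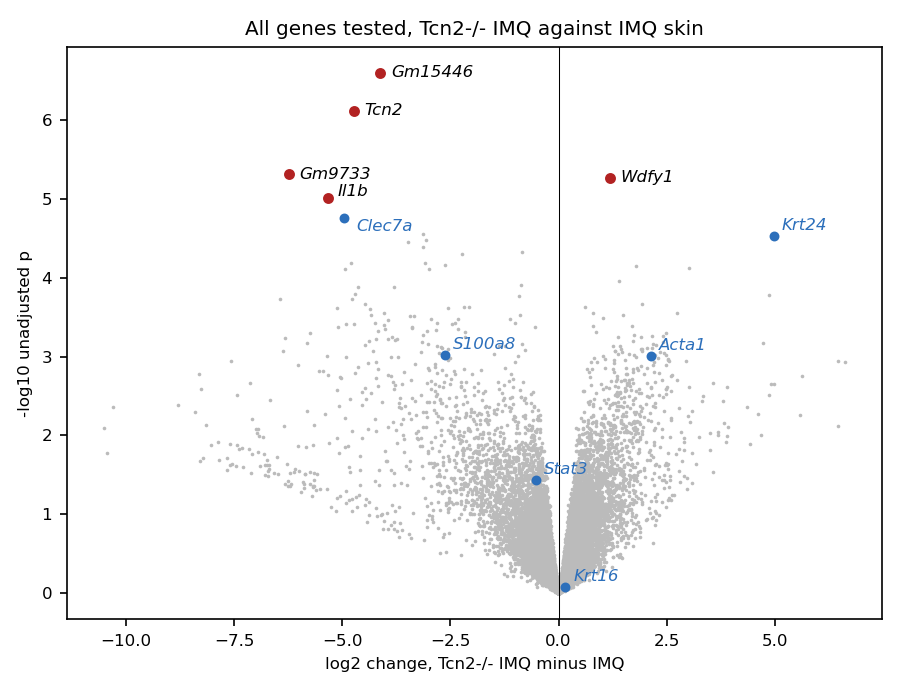
Log2 change (x axis) against −log10 of the unadjusted p (y axis) for the 18147 genes tested, Tcn2-/- IMQ minus IMQ skin. The 5 called genes are red, 6 further genes named in the text are blue and all others grey; Il1b and Clec7a lie side by side at the left, and Stat3 and Krt16 lie low and near 0.

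Sebaceous gland genes also differed between the Tcn2-/- IMQ libraries. Acsbg1, an acyl-CoA synthetase of sebaceous gland, stood at 69.2, 138, 97.8, 103 and 102 CPM in IMQ and 440.0, 286, 189 and 145 CPM in Tcn2-/- IMQ libraries, without overlap and with replicates 1 and 2 highest (1.38, SE 0.314, adjusted p = 0.134). Soat1, a sterol acyltransferase, stood at 59.7 to 192 CPM and 805, 690.5, 49.3 and 166 CPM, with replicates 1 and 2 above and replicate 3 below every IMQ library (2.14, SE 0.652, adjusted p = 0.232). Of 26 sebaceous genes 16, 13, 1 and 4 were above every IMQ library in replicates 1 to 4 (median 0.69, 5 higher at an unadjusted p below 0.05, 2 higher by DESeq2, 0 by limma voom). The shares were 61.5%, 50%, 3.85% and 15.4%, beside 26.3%, 30.1%, 16.2% and 13.7% of all genes tested. In the adipocyte list (25 measured, median −0.57, 7 lower and 1 higher at an unadjusted p below 0.05, 3 lower by DESeq2, 0 by limma voom) 2 genes were lower without overlap, beside 3.18% of all genes tested. These were the lipid droplet gene Cidec at 74.3 to 192 CPM and 49.6, 21.1, 43.8 and 47.3 CPM (−1.78, SE 0.493, adjusted p = 0.187) and the adipokine Adipoq at 35.8 to 123 CPM and 29.2, 9.23, 29 and 17.3 CPM (−1.96, SE 0.57, adjusted p = 0.211). Fibroblast and collagen genes (29 measured, median 0.058, 0 at an unadjusted p below 0.05, 0 by DESeq2, 0 by limma voom) had none without overlap. Hair shaft genes (43 measured, median −3.80, 13 lower at an unadjusted p below 0.05, 0 by DESeq2, 0 by limma voom) were set by single libraries, since their mean log2 CPM was 7.57 and 5.12 in IMQ replicates 2 and 5 and −1.86 to −0.65 in the other IMQ libraries, and 3.94 in Tcn2-/- IMQ replicate 2 against −1.61 to −0.84 in the others.

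Within 20 Mb of Tcn2 on chromosome 11, 152 genes were tested and Tcn2 was the 1 called. Of these 152, 6 were higher and 5 lower without overlap, or 7.24%, beside 4.89% of all genes tested.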

How the data were processed

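The authors deposited raw counts of reads per gene, not normalized, for 12 mouse skin libraries. The genome build was GRCm39, per the submitters' processing notes, and libraries were made from oligo(dT)-captured RNA with random priming, per the labels' protocols. For the aligner, counter, annotation release and strand setting, nothing is given in the sources used here. Genes were filtered with filterByExpr (18147 of 33539 kept) and scaled with TMM factors. In edgeR 4.0.16 a quasi-likelihood model with a mean per group was fitted to all 12 libraries, so control libraries enter the estimate of spread. The labels do not say whether replicate numbers pair the groups, and the main model fitted no pairing. Same-numbered libraries correlated at −0.12, 0.42, 0.22 and 0.19. No libraries were identical. List scores are mean log2 CPM with a prior count of 2. In simulated counts of this comparison over 18147 genes, 10% of 2-fold, 80% of 4-fold, 82% of 8-fold and 92% of 16-fold changes were recovered. The simulation drew genes independently and put changes only in genes above 1 CPM. It held no split of Tcn2-/- IMQ replicates 1 and 2 from 3 and 4. These shares therefore need not hold for the real libraries, and a missing call does not exclude a change of these sizes. Alternatives were DESeq2 1.42.0, other factors (RLE, upper quartile), 2 other filters, the 9 libraries alone, limma voom with sample quality weights, covariates, a replicate block and libraries left out. Of 1086 listed symbols 1064 matched directly and 12 through RefSeq synonyms. Members and lists were chosen with earlier results of these data known. Named were the readouts, called genes, up to 15 genes per direction with the smallest p (at least 1 CPM, no overlap, no gene models), 2 or 3 per list and cell type markers. Not every gene this rule picks is reported here. Mmaa, H2-Aa, Il1bos, Il1a, Il18, Il1r2, Il1rn, Nlrp3, Casp4, Casp1, Myd88 and Trac were chosen after their values were seen.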

Additional observations from a re-analysis of the deposited data

Results flagged for a closer look

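In 316 sets of values, the highest or lowest library of a group was set against the rest of its group by Dixon's gap test at 95%. Of these, 39 (12.3%) passed. A set is 1 gene in CPM, 1 list in mean log2 CPM, or the total counts, mitochondrial share or leading principal component of the libraries. The limit of the test assumes independent, normally distributed values. Genes entered in CPM without logs and all sets share the same libraries, so the share passing cannot be compared with chance. In 3 of the 39 no library of the group held more than 3 counts of the gene, so single reads set the gap (Il12b, Il17a and Il17f in Tcn2-/- IMQ skin). Leaving out the 6 sets of that kind, 36 of 310 (11.6%) passed. No explanation was tested.

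IMQ replicate 1 was high in Il1b at 274 (others up to 77), Tnf at 10.3 (others up to 3.7), Il23a at 3.85 (others up to 0.999) and Il22 at 0.583 (others up to 0.06). It was also high in Cxcl1 at 22.3 (others up to 5.99), Cxcl2 at 232 (others up to 34.2), S100a8 at 5291 (others up to 1749.8) and S100a9 at 6005 (others up to 2195). It was also high in Ccl3 at 69.9 (others up to 14.1), Clec4e at 41.3 (others up to 13.7), Mmp8 at 58.1 (others up to 12.9) and Vcam1 at 128 (others up to 52.5). It was also high in Il1a at 91.2 (others up to 42.5) and the vitamin B12 handling list at 4.56 (others up to 4.46). The same library was low in the Schwann cell and melanocyte list at 3.14 (others at least 4.01). IMQ replicate 2 was high in Cxcl9 at 55.5 (others up to 9.61), Soat1 at 192 (others up to 86.9), Trac at 3.7 (others up to 1.09) and the type I interferon response list at 6.40 (others up to 4.31). IMQ replicate 3 was low in Ppp1r3c at 31.4 (others at least 40.1) and Napsa at 6.18 (others at least 7.32). IMQ replicate 4 was high in Flg2 at 132 (others up to 38.4) and Il18 at 102 (others up to 52.2). IMQ replicate 5 was high in Krt16 at 4031 (others up to 2267), Krt14 at 13437 (others up to 6759) and Mcpt8 at 4.68 (others up to 1.15). Tcn2-/- IMQ replicate 1 was high in Il12b at 0.0594 (others up to 0), Des at 1597 (others up to 854) and Blk at 0.654 (others up to 0.0618). It was also high in Mmp12 at 4.52 (others up to 1.85), Alas2 at 3.98 (others up to 1.85) and Hbb-bs at 72.3 (others up to 23.4). Tcn2-/- IMQ replicate 2 was high in Gm15446 at 1.49 (others up to 0.495) and the hair shaft and matrix list at 3.94 (others up to −0.84). The same library was low in Clec4e at 0 (others at least 0.742). Tcn2-/- IMQ replicate 3 was high in Siglecf at 0.371 (others up to 0.179). Tcn2-/- IMQ replicate 4 was high in Mmut at 67.6 (others up to 54.6) and Il17a at 0.0583 (others up to 0). The same library was low in Il17f at 0 (others at least 0.0594).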

How the results depend on the processing

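Of 2657 values of named genes under the alternatives, 2385 kept direction and side of the threshold, 44 lost a call, 167 gained one and 61 changed sign. Of 42 list medians, 23 kept their sign under all 24 alternatives, among them the IL-1, STAT3, IL-17, neutrophil, dendritic, T, B, erythrocyte and both muscle lists. A kept sign does not mean a kept size. The IL-1 median ran from −1.51 to −0.0056, the IL-17 median from −1.45 to −0.053 and the STAT3 median from −0.86 to −0.14. The sarcomere median ran from 0.16 to 1.86, the dendritic from −2.15 to −1.51 and the erythrocyte from −5.60 to −3.43. Upper-quartile factors moved the median of all genes to 0.074 from 0.0082. Genes called higher and lower were 244 and 356 with DESeq2, 4 and 13 without a filter, 5 and 37 in the 9 libraries, and 4 and 24 with limma voom (sample quality weights). They were 0 and 1 without Tcn2-/- IMQ replicates 1 and 2, and 168 and 152 without 3 and 4. With 1 library left out, counts ran from 0 to 8 higher and 1 to 87 lower; both highest counts came without control replicate 1. Called readouts were 2 (Tcn2, itself in that list, and Il1b), against 8 with DESeq2, 5 without replicates 3 and 4, 0 without 1 and 2 and 0 to 3 with 1 library left out. Called list members were 2, against 140, 7, 13 and 12 under DESeq2, no filter, the 9 libraries and limma voom. They were 74 without replicates 3 and 4, 0 without 1 and 2 and 0 to 29 with 1 library left out. The muscle covariate called 0 genes higher and 0 lower (943 at an unadjusted p below 0.05), 0 readouts and 0 list members.

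The labels do not say whether replicate numbers pair libraries, and the correlations do not settle it. Tcn2-/- IMQ replicates 2, 3 and 4 correlated best with the IMQ library of their own number (0.42, 0.22 and 0.19). Replicate 1 did not (−0.12, against 0.14 with IMQ replicate 4). With the replicate block edgeR called 0 genes (1646 at an unadjusted p below 0.05), 0 readouts and 0 list members, and Tcn2 was at −4.60, Il1b at −5.32, Il6 at −0.040 and Krt16 at −0.31. Tcn2 and Il1b lost their calls at −4.97 and −4.07 with the muscle covariate and at −4.56 and −4.95 without replicates 1 and 2. With 1 library left out, Tcn2 ran from −4.88 to −4.48 and Il1b from −5.53 to −4.59. Signs changed with the muscle covariate for Cd320 (0.14), Cxcl1 (1.35), Ccl20 (2.86), Lcn2 (0.42), Il1f6 (0.82), Il1f9 (1.27), Krt6a (1.15), Fos (0.0021), Il1a (1.87), Il1rn (0.85) and Cd207 (−1.18). They changed with limma voom for Cxcl1 (0.19), Ccl20 (1.09), Il1f6 (0.18), Il1f9 (0.051), Krt6a (0.039), Il1a (0.30), Il1rn (0.025) and Cd207 (−1.08), and with sex as a covariate for Il1f6 (0.099) and Il1a (0.30). Without replicates 1 and 2 they changed for Il1f6 (0.75), Il1f9 (0.45), Krt6a (0.75), Il1bos (−0.13), Il1a (0.64), Il1rn (0.30), C1qa (0.0065) and Cd207 (−0.060). Without replicates 3 and 4 they changed for Cd320 (0.0067), Mmut (−0.087), Il6 (−3.64), Krt16 (−2.94), Krt10 (−1.44), Krt14 (−1.18) and Cd3g (0.083). Leaving out 1 library in turn, values crossed 0 for Cd320 (−0.35 to 0.027), Mmut (−0.057 to 0.078), Cxcl1 (−1.63 to 0.13), Il1f6 (−0.58 to 0.27), Krt6a (−0.91 to 0.21), Krt16 (−0.55 to 0.54), Krt10 (−0.17 to 0.53), Krt14 (−0.34 to 0.54), Il1bos (−0.48 to 0.42), Il1a (−1.09 to 0.21) and Cd207 (−0.25 to 0.86). The cause of these changes was not tested.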

Other observations

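Cell cycle genes were nearly all at positive changes (46 of 49; median 0.43), and edgeR called none, 0 had an unadjusted p below 0.05, DESeq2 called 0 and limma voom 0. The count above every IMQ library was 4, 42, 22 and 5 in Tcn2-/- IMQ replicates 1 to 4, so replicates 2 and 3 had the most. The shares were 8.16%, 85.7%, 44.9% and 10.2%, beside 26.3%, 30.1%, 16.2% and 13.7% of all genes tested. Nuclear genes of oxidative phosphorylation had a median of 0.41 over 40 members; edgeR called none, 12 higher had an unadjusted p below 0.05, DESeq2 called 0 and limma voom 0. Of these, 38, 37, 21 and 7 were above every IMQ library in replicates 1 to 4 (95%, 92.5%, 52.5% and 17.5%, the last near the share of all genes tested). The groups were without overlap for 3, all higher, beside 1.71% of all genes tested. Mitochondrially encoded genes (median 0.50, 0 at an unadjusted p below 0.05, 0 by DESeq2, 0 by limma voom) had 8, 10, 0 and 1 of 13 above. Skeletal muscle genes were higher in the same libraries, and their part in this was not tested.

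Complement genes were at negative changes for 22 of 23 members (median −0.56). In replicates 1 to 4, 15, 19, 3 and 2 were below every IMQ library (65.2%, 82.6%, 13% and 8.7%), beside 26.6%, 31.5%, 15.1% and 16.7% of all genes tested. In this list edgeR called none, 2 lower and 1 higher had an unadjusted p below 0.05, DESeq2 called 1 higher and limma voom 0. The member at a positive change was Cd59a, an inhibitor of the membrane attack complex, at 13.4 to 20.3 CPM in IMQ and 38.4, 33.3, 22.6 and 22 CPM in Tcn2-/- IMQ libraries (0.88, SE 0.208, adjusted p = 0.137). No member of the next lists was called by edgeR. Immediate early genes numbered 27 (median −0.50, 7 lower at an unadjusted p below 0.05, 1 lower by DESeq2, 0 by limma voom), EGF family genes 14 (median −0.22, 2 lower and 1 higher at an unadjusted p below 0.05, 0 by DESeq2, 0 by limma voom) and hypoxia and glycolysis genes 29 (median −0.11, 2 higher at an unadjusted p below 0.05, 1 higher by DESeq2, 0 by limma voom). Barrier lipid genes numbered 28 (median −0.082, 1 lower and 3 higher at an unadjusted p below 0.05, 1 higher by DESeq2, 0 by limma voom), arginine and polyamine genes 15 (median −0.17, 3 lower and 1 higher at an unadjusted p below 0.05, 0 by DESeq2, 0 by limma voom) and circadian clock genes 18 (median 0.11, 2 higher at an unadjusted p below 0.05, 0 by DESeq2, 0 by limma voom). Type 2 cytokine genes numbered 12 (median −0.81, 3 lower and 1 higher at an unadjusted p below 0.05, 3 lower and 1 higher by DESeq2, 0 by limma voom) and wound matrix and metalloproteinase genes 27 (median −0.28, 3 lower at an unadjusted p below 0.05, 2 lower by DESeq2, 0 by limma voom). Schwann cell and melanocyte genes numbered 18 (median 0.36, 2 lower and 2 higher at an unadjusted p below 0.05, 0 by DESeq2, 0 by limma voom). Of the wound matrix genes the macrophage elastase Mmp12 stood at 3.17 to 16.6 CPM and 4.52, 1.73, 1.85 and 1.81 CPM (−1.75, SE 0.468, adjusted p = 0.174). Crlf2, the receptor for thymic stromal lymphopoietin, stood at 24.8 to 33.4 CPM and 12.2, 8.46, 20.4 and 12.3 CPM without overlap (−1.05, SE 0.296, adjusted p = 0.194).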
